A study of Homo sapiens with 6 samples.

Results

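Host genes of small RNAs are genes whose transcripts carry small nucleolar RNAs (snoRNAs) or microRNAs inside their introns or exons. Many are protein-coding, and those chosen as members here are long noncoding genes. They were followed here in MDA-MB-231 cells given H182. Members were chosen by symbol alone. For snoRNA hosts this was SNHG followed by a number, or GAS5, DANCR or ZFAS1. For microRNA hosts it was a symbol of capitals and digits only that begins with MIR and ends with HG. Hyphenated symbols such as MIR4435-2HG were therefore left out. The rule found 30 of the 27451 gene rows, of which 8 were snoRNA hosts and 22 were microRNA hosts. No row matched the symbols GAS5, DANCR, ZFAS1, SNHG1, MIR17HG or MIR31HG, so those genes were not analysed here.

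MDA-MB-231 is an established human breast cancer line. The H182 group was 3 libraries of cells exposed for 2 h to H182 at 2 µM, listed by the submitters' title as an inhibitor of the transcription factor STAT3, and the other group was 3 libraries of cells given the solvent DMSO. Both groups came from the same line with no genetic change named in the labels, and poly-A RNA was sequenced. Values are TPM, a transcript's share of the library per length, scaled to a total of 1000000, so depth was unknown. VIM, at 3430 to 4051 TPM, CD44 and EGFR were high in the 6 libraries, while the estrogen receptor gene ESR1 reached at most 0.06 TPM. Of the other markers listed beforehand as low or absent, PGR and CDH1 reached at most 0.06 and 0.28 TPM. ERBB2, at 24.92 to 29.4 TPM, and GATA3, at 6.47 to 11.27 TPM, were not absent. Of 10 markers of blood, endothelial, stromal, liver and red cells, 6 stayed below 1 TPM in every library, and their summed level of 146 to 151 TPM in H182 and 153 to 166 TPM in DMSO was nearly all CD68. In bulk RNA, fewer cells of a kind and less RNA per cell cannot be told apart.

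snoRNAs are released mostly from spliced introns and then guide chemical marks onto ribosomal RNA, the C/D box kind guiding ribose methylation and the H/ACA box kind pseudouridylation. The spliced host transcript is often exported, briefly translated and removed by nonsense-mediated decay. microRNAs are cut from their host transcripts by the Microprocessor and then by Dicer, and their seed bases select the mRNAs they repress. The libraries measured the polyadenylated hosts and not the small RNAs, so no level of a mature snoRNA or microRNA is given.

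The mature microRNAs of the hosts that the results turn on are shown first, from RefSeq for the build GRCh38.p14, 5′ to 3′, with the seed (bases 2 to 8) in capitals. miR-503 and miR-22 lie in the hosts that rose, and miR-137 lies in a host that fell.
hsa-miR-503-5p: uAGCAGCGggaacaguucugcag
hsa-miR-22-3p: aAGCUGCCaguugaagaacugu
hsa-miR-137-3p: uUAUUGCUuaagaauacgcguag
A mature sequence was found for 17 of the 17 microRNA genes annotated inside the tested hosts. Only microRNA genes wholly within a host's annotated span, on its strand, were counted, so any that cross or lie beyond its ends are left out. Among hosts that did not pass the test, 3 seeds occurred in more than 1 mature microRNA, and microRNAs with 2 of these seeds are shown for comparison. MIR222HG carries miR-221 and miR-222, known repressors of the cell-cycle inhibitor CDKN1B, with 1 seed between them.
hsa-miR-221-3p: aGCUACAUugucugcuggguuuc
hsa-miR-222-3p: aGCUACAUcuggcuacugggu
The let-7 seed, GAGGUAG, recurred in 4 mature microRNAs from 3 hosts, namely let-7a and let-7b in MIRLET7BHG, let-7c in MIR99AHG, and miR-4458 in MIR4458HG. The let-7 family is known to repress growth and stem-cell genes.
hsa-let-7b-5p: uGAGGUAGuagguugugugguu
hsa-miR-4458: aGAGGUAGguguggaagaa
The third shared seed, UAUACAA, was that of the 3p strands of let-7a and let-7b in MIRLET7BHG.

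The snoRNA hosts carried both kinds of guide. SNORD60 is the C/D box snoRNA in the intron of SNHG19, the snoRNA host that fell, and SNORA24 is the H/ACA box snoRNA in SNHG8, the host with the highest level. The sequences come from the GENCODE 29 transcripts of GRCh38, at chr16:2155023-2155105 on the minus strand and chr4:118279190-118279320 on the plus strand. Capitals mark the C box and D box of SNORD60 and the terminal ACA of SNORA24, which lies 3 bases from the end.
SNORD60: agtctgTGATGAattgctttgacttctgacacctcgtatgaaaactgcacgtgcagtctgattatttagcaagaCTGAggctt
SNORA24: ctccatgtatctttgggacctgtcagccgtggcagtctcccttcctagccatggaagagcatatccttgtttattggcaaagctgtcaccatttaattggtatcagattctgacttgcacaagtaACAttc

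Many of the 30 host rows that the symbol rule found were low or silent in these libraries. Of the 30, 15 averaged 1 TPM or more across the libraries and were tested, 5 of them snoRNA hosts and 10 microRNA hosts. Another 9 were listed at 0 in every library: the snoRNA hosts SNHG23 and SNHG24, and 7 microRNA hosts. Among these 7 were MIR143HG, the smooth-muscle host of miR-143 and miR-145, and MIR381HG, which lies in the imprinted cluster of chromosome 14. The remaining 6 stayed below the filter with no value above 0.68 TPM. They included MIR155HG, a host known from activated lymphocytes, which reached 0.04 TPM in 1 library and was listed at 0 in the others. MIRLET7DHG was listed at 0 in all 3 H182 libraries, and at 0.45, 0.34 and 0 TPM in the DMSO libraries.

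Among the tested hosts the levels covered a wide range. SNHG8 stood highest at a mean of 115 TPM over all libraries and SNHG15 next at 56.7 TPM. Of the microRNA hosts, MIR137HG averaged 48.6 TPM, MIR503HG 36.9 TPM and MIR22HG 30.6 TPM. The order of MIR503HG and MIR137HG differed between the groups, with means of 46.1 and 44.9 TPM in H182 and of 27.8 and 52.3 TPM in DMSO. Library values of SNHG15 and MIR137HG overlapped, as did those of MIR503HG with MIR137HG and with MIR22HG. MIR100HG, SNHG19, SNHG9 and SNHG25, at 22.6, 19.0, 17.5 and 14.8 TPM, overlapped each other in their library values, so their order is not settled by these data. The other 6 microRNA hosts lay between 1.06 and 7.04 TPM.

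**Figure D1:**
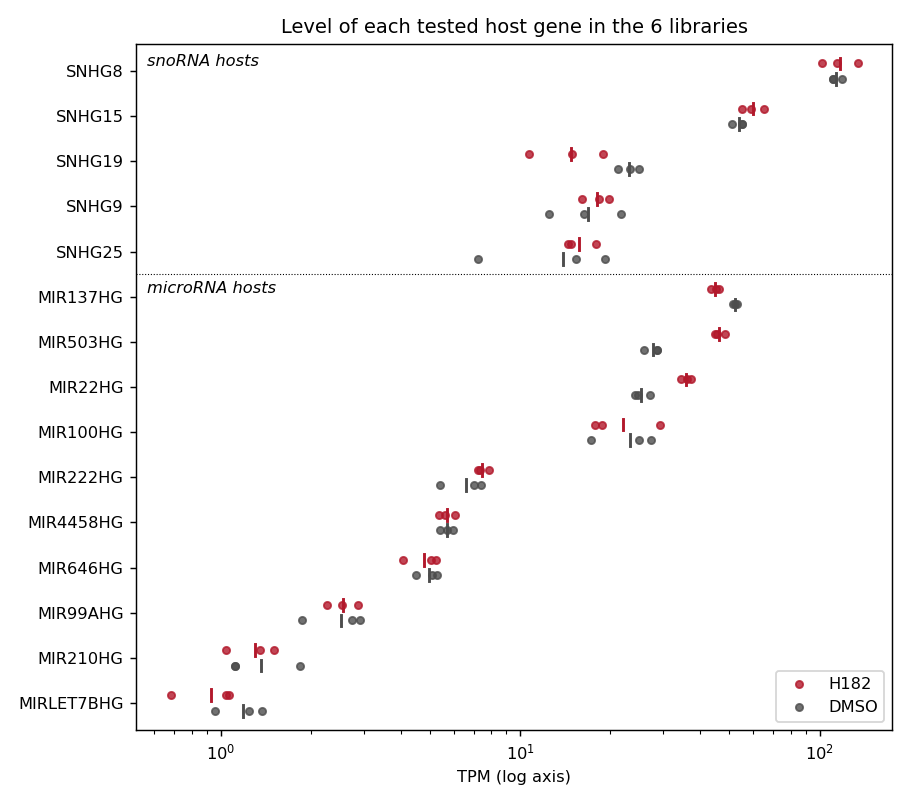
TPM on a log axis for the 15 tested host genes, snoRNA hosts above the dotted line and microRNA hosts below it; points are single libraries (3 H182 in red, 3 DMSO in grey) and ticks are group means. MIR503HG and MIR22HG have all H182 points right of the DMSO points, while MIR137HG and SNHG19 have them all to the left.

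H182 was compared with DMSO to ask which host transcripts had changed after 2 h. Of the 15 tested hosts 4 passed limma's test at an adjusted p under 0.05, which is 26.7% of them, beside 24.0% of all 12294 tested genes. The microRNA hosts MIR503HG and MIR22HG rose, and the microRNA host MIR137HG and the snoRNA host SNHG19 fell. Higher calls made up 5.30% of all tested genes and lower calls 18.7%. Among the 384 tested genes annotated as long intergenic noncoding RNAs (lincRNAs), 14.1% were called, with 21 higher (5.47%) and 33 lower (8.59%). The hosts' share was thus near the background of all genes. The groups did not overlap in 4 of the 15 hosts, against 41.4% of all tested genes.

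By kind, 1 of the 5 tested snoRNA hosts fell and none rose, and the median log2 change of the 5 was 0.12, with 4 of 5 values above 0. Of the 10 tested microRNA hosts 2 rose and 1 fell, with a median of -0.02 and 4 values above 0. Over all tested genes the median was -0.09. The summed level of the 8 snoRNA hosts was 245.0, 222.4 and 208.8 TPM in the H182 libraries, against 226.2, 206.6 and 230.4 TPM in the DMSO libraries. These sums overlapped, with a ratio of means of 1.02. For the 22 microRNA hosts the sums were 168.8, 166.5 and 181.9 TPM in H182 libraries and 145.6, 154.2 and 155.9 TPM in DMSO libraries. They did not overlap, with a ratio of means of 1.14. The sums include the 2 hosts that rose, MIR503HG (means of 46.1 TPM in H182 and 27.8 TPM in DMSO) and MIR22HG (35.8 and 25.4 TPM). They also include MIR137HG, which fell (44.9 and 52.3 TPM). Of the 10 tested microRNA hosts 6 had changes below 0, so the summed rise does not describe the hosts in general.

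**Figure D2:**
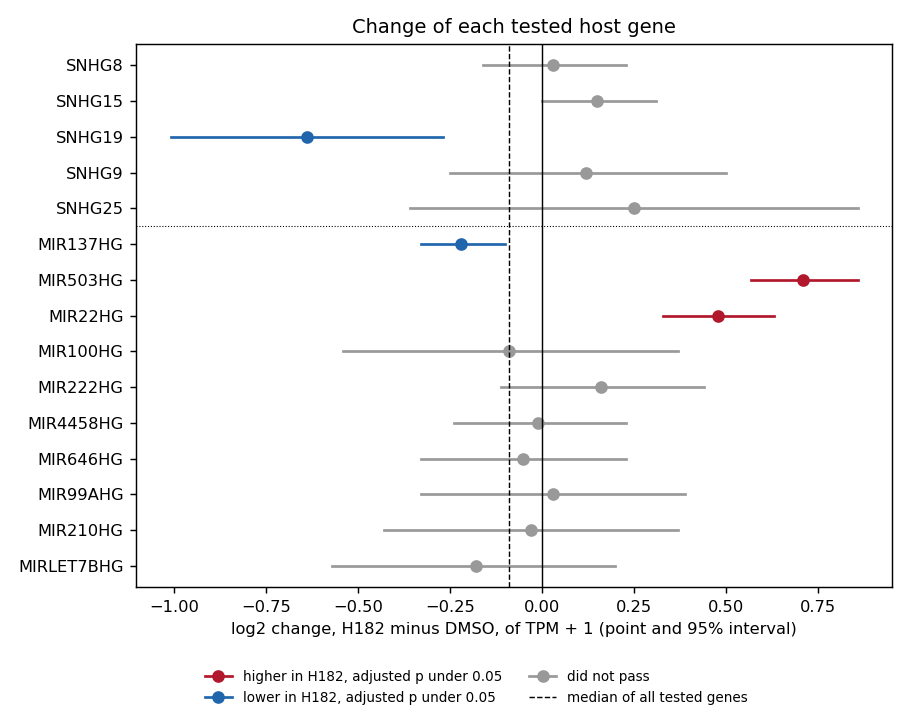
Log2 change (H182 minus DMSO) of TPM + 1 for the 15 tested hosts, with its 95% interval from limma; the dashed line is the median of all tested genes at -0.09. MIR503HG and MIR22HG lie wholly above 0 and MIR137HG and SNHG19 wholly below it, while the widest intervals belong to SNHG25 and MIR100HG.

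MIR503HG rose in H182. The gene (ENSG00000223749.7, chrX:134543337-134546632 on the minus strand, GRCh38) is a lincRNA gene with 5 merged exons, and the miR-503 hairpin is annotated in an intron. miR-503 belongs to a group of microRNAs known to repress cell-cycle genes such as CCND1. MIR503HG had 45.40, 44.63 and 48.18 TPM in the H182 libraries, against 25.96, 28.66 and 28.63 TPM in the DMSO libraries. Every H182 value was well above every DMSO value. The means were 46.1 ± 1.87 TPM in H182 and 27.8 ± 1.55 TPM in DMSO (SD, n = 3 each), a ratio of 1.66. On the log2(TPM + 1) scale the change was 0.71 (SE 0.064, 95% interval 0.57 to 0.86, limma adjusted p = 5.28e-05). It passed under all 15 other settings, with changes between 0.67 and 0.81. Its nearest neighbour on the opposite strand, LINC00629, stayed below 1 TPM in all libraries.

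MIR503HG and MIR22HG both rose under every setting tried. The promoter window of MIR22HG held no match to the searched transcription factor motifs and is not printed. The promoter window of MIR503HG is shown. RefSeq gives it at chrX:134546581-134546880 on the minus strand (GRCh38.p14), from 250 bases before to 50 bases after the annotated start. Whether transcription begins at that start was not tested. Capitals mark the only match to the searched transcription factor motifs, the antioxidant response element TGACNNNGC, read here on the reverse strand and beginning 196 bases before the start.
MIR503HG: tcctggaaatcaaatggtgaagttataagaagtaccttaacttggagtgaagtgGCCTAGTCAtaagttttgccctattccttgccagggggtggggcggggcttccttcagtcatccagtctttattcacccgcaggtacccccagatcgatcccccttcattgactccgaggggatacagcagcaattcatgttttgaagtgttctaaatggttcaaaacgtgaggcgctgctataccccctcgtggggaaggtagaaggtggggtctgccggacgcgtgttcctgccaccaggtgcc
That motif occurs in 13.3% of the 34943 RefSeq windows, so a match is common.

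MIR22HG was the other host that rose. MIR22HG (ENSG00000186594.12, chr17:1711493-1717174 on the minus strand) has 4 merged exons, and the miR-22 hairpin overlaps an exon. Its transcript is known as short-lived and as responsive to chemical stress in human cells. It had 36.00, 37.16 and 34.33 TPM in the H182 libraries, against 27.06, 24.26 and 24.74 TPM in the DMSO libraries. Here too every H182 library lay above every DMSO library. The means were 35.8 ± 1.42 TPM in H182 and 25.4 ± 1.5 TPM in DMSO, a ratio of 1.41, and the log2 change was 0.48 (SE 0.067, limma adjusted p = 0.000893). It passed under all 15 other settings, with changes between 0.45 and 0.58. The annotated span of MIR22HG, introns included, shares 652 bases at its 5′ end with that of WDR81, which is transcribed from the opposite strand. WDR81 had 6.70, 7.0 and 7.51 TPM in H182 libraries and 8.87, 9.08 and 11.16 TPM in DMSO libraries, and it fell by 0.40 on the log2 scale (limma adjusted p = 0.0268). The strand setting of the counting was not given in the sources used here, so reads in any shared exon bases could have gone to either gene.

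MIR137HG fell slightly. The gene (ENSG00000225206.5, chr1:97933474-98049863 on the minus strand) is the long host of miR-137, a microRNA known from neuronal development, whose hairpin overlaps an exon. It had 45.24, 43.43 and 46.05 TPM in the H182 libraries, against 52.17, 53.19 and 51.47 TPM in the DMSO libraries. The groups did not overlap, and the values within each were close together, with coefficients of variation of 2.99% in H182 and 1.65% in DMSO. The means were 44.9 ± 1.34 TPM in H182 and 52.3 ± 0.865 TPM in DMSO, a ratio of 0.859, and the log2 change was -0.22 (SE 0.051, limma adjusted p = 0.0147). The call was lost with median-of-ratios scaling (change -0.11, limma adjusted p = 0.149), with quantile normalization (0.0773), without H182 replicate 2 (0.0586) and without DMSO replicate 2 (0.0563). The annotated spans of MIR137HG and DPYD, introns included, overlap on the same strand over 61527 bases. Shared exon bases were not counted, and in any such bases the counting could split reads. DPYD had a change of -0.11 that did not pass (limma adjusted p = 0.209).

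SNHG19 was the snoRNA host that fell. SNHG19 (ENSG00000260260.1, chr16:2154797-2155358 on the minus strand) is a short gene of 2 exons with a transcript of 342 bases. It had 10.69, 14.90 and 18.87 TPM in the H182 libraries, against 24.86, 21.30 and 23.26 TPM in the DMSO libraries. All H182 values were lower than all DMSO values, but the H182 libraries differed widely among themselves. The means were 14.8 ± 4.09 TPM in H182 and 23.1 ± 1.78 TPM in DMSO, a ratio of 0.64, and the log2 change was -0.64 (SE 0.164, 95% interval -1.01 to -0.27, limma adjusted p = 0.0205). The limma adjusted p was above 0.05 without H182 replicate 2 (0.0538), without DMSO replicate 1 (0.0598) or 3 (0.0516), with median-of-ratios scaling (0.0546), with no filter (0.0757) and with no mean-variance trend (0.0591). Over all 15 other settings the change itself lay between -0.82 and -0.44. The neighbouring gene TRAF7, which begins 339 bases away on the opposite strand, had a change of -0.20 that did not pass (limma adjusted p = 0.077). RAB26, 631 bases away and also on the opposite strand, was below the filter and was not tested. It averaged 0.547 ± 0.189 TPM in H182 and 1.24 ± 0.08 TPM in DMSO.

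**Figure D3:**
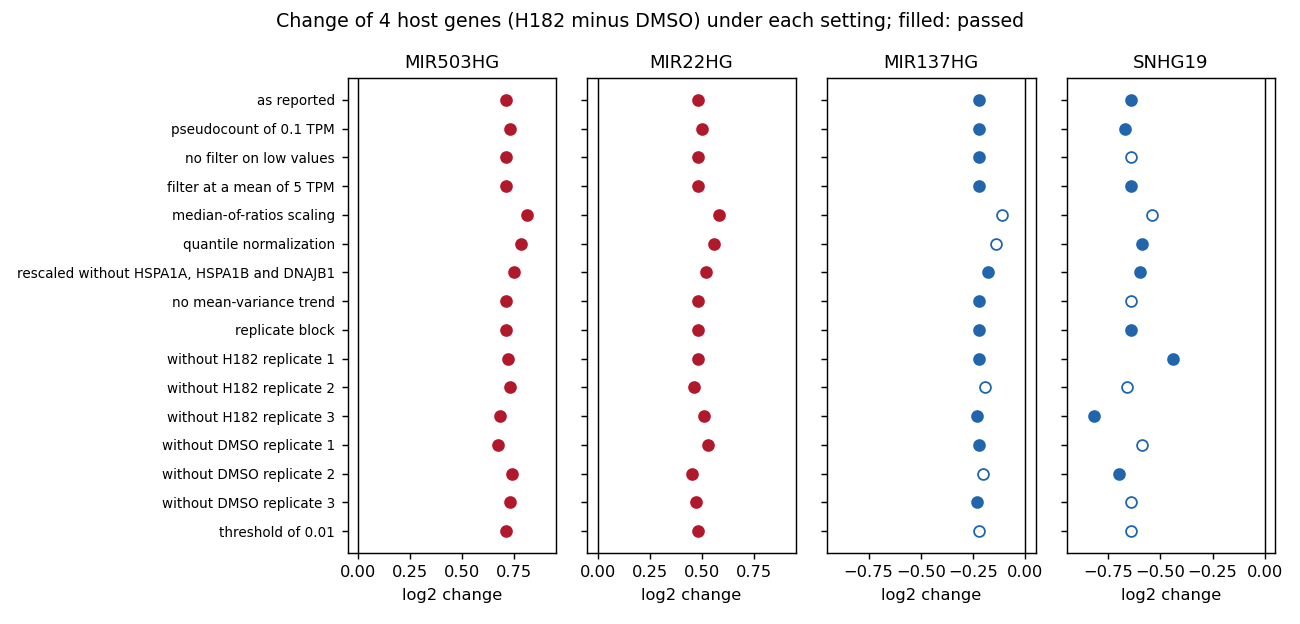
Log2 change (H182 minus DMSO) of the 4 called hosts under each processing setting, filled where the gene passed that setting's threshold and open where it did not. MIR503HG and MIR22HG are filled throughout, while MIR137HG has 5 open points and SNHG19 has 7.

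The other 4 tested snoRNA hosts did not pass. SNHG8 (ENSG00000269893.6, chr4:118278709-118279823, plus strand) had 134.42, 114.20 and 101.72 TPM in H182 libraries and 118.55, 110.74 and 110.91 TPM in DMSO libraries. The H182 values lay on both sides of the DMSO values, with a change of 0.03 (95% interval -0.16 to 0.23, limma adjusted p = 0.816). SNHG15 (ENSG00000232956.8, chr7:44983023-44986961, minus strand), a short-lived transcript that carries SNORA9, had 65.39, 59.08 and 54.91 TPM in H182 libraries and 50.88, 54.92 and 55.02 TPM in DMSO libraries. The lowest H182 library was level with the DMSO libraries, and the change of 0.15 did not pass (limma adjusted p = 0.143, with the lowest over the other settings at 0.0562). H182 replicate 1 had the highest SNHG8 and SNHG15 values of the 6 libraries and the lowest SNHG19 value.

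SNHG9 and SNHG25 were set apart by the spread of their DMSO libraries. SNHG9 (chr16:1964959-1965509, plus strand), the host of SNORA78, had 19.76, 16.15 and 18.37 TPM in H182 libraries and 16.38, 12.44 and 21.79 TPM in DMSO libraries. SNHG25 (chr17:64145970-64146476, plus strand), which carries SNORD104 and SNORA50C, had 14.41, 17.93 and 14.84 TPM in H182 libraries and 15.38, 7.24 and 19.20 TPM in DMSO libraries. In both genes DMSO replicate 2 was the lowest of the 6 libraries. The changes were 0.12 (limma adjusted p = 0.626) and 0.25 (limma adjusted p = 0.534), and without DMSO replicate 2 they were -0.06 and -0.13. The coefficient of variation among DMSO libraries was 43.8% for SNHG25, whose median transcript is 192 bases, 27.8% for SNHG9 at 373 bases, and 3.93% for SNHG8 at 470 bases. SNHG19, at 342 bases, had 7.71%, and SNHG15, at 842 bases, had 4.41%. Among the H182 libraries the values were 12.2% for SNHG25, 10.1% for SNHG9, 14.1% for SNHG8, 27.6% for SNHG19 and 8.82% for SNHG15. A link between spread and transcript length was not tested.

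The other 7 tested microRNA hosts did not pass. MIR100HG (ENSG00000255090.5, an identifier with no match in GENCODE 29), known as the host of miR-100, let-7a-2 and miR-125b-1, had 17.81, 18.71 and 29.41 TPM in H182 libraries and 17.29, 24.94 and 27.40 TPM in DMSO libraries. It varied widely in both groups, with a change of -0.09 (95% interval -0.54 to 0.37, limma adjusted p = 0.794). MIR222HG (chrX:45745211-45770274, minus strand) had 7.35, 7.21 and 7.86 TPM in H182 libraries and 5.41, 7.04 and 7.40 TPM in DMSO libraries. The groups overlapped, and the change was 0.16 (limma adjusted p = 0.366). MIR210HG, the host of the hypoxia-induced miR-210, stayed near the filter, at 1.04, 1.51 and 1.35 TPM in H182 libraries and 1.84, 1.12 and 1.12 TPM in DMSO libraries. Its change was -0.03 (95% interval -0.43 to 0.37, limma adjusted p = 0.924). The let-7 family hosts MIR4458HG, MIR99AHG and MIRLET7BHG had changes of -0.01, 0.03 and -0.18, and MIR646HG had -0.05. None of their 95% intervals excluded 0.

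Called hosts occurred with small RNAs in exons and in introns, with too few calls to compare the 2 places. Exons were merged over all annotated transcripts of a gene, so an overlap need not hold for every spliced form. Of the 6 tested hosts with small RNAs that overlap exons, MIR22HG rose and MIR137HG fell. Of the 6 with intronic small RNAs, MIR503HG rose and SNHG19 fell. In 2 hosts, MIRLET7BHG and SNHG25, small RNAs lay in both places, and neither passed.

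Promoter windows of 300 bases were listed in RefSeq for 12 of the 15 tested hosts, 22 windows in all, and were searched on both strands. No window held the heat shock element (GAA and TTC in turn, 3 units with 2 free bases between them, in 0.489% of all windows), the cAMP response element TGACGTCA (1.84%), the AP-1 site TGANTCA (7.72%) or the E-box CACGTG (7.23%). The STAT site TTCNNNGAA, in 7.66% of all windows, was found in a window each of MIR100HG, MIR4458HG and MIR99AHG, none of which passed the test. The antioxidant response element was found in MIR503HG and MIRLET7BHG. The windows of the other hosts, namely MIR22HG, MIR137HG, SNHG19, SNHG8, MIR210HG, MIR222HG and MIR646HG, held none of these motifs.

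Many snoRNA host genes begin with a run of pyrimidines, the feature of mRNAs whose translation follows cell growth. A run of at least 7 bases that reached within 10 bases of the start was found in 7 of the 22 windows. These belonged to 6 of the 12 hosts, and such a run was found in 21.8% of all windows. A counted run need not cover the start itself. The 41 bases around the start are shown for SNHG19, which fell, and SNHG8, the highest host. They are taken from windows at chr16:2155309-2155608 on the minus strand and chr4:118278512-118278811 on the plus strand, and capitals mark a run of at least 7.
SNHG19: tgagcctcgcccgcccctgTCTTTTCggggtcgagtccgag
SNHG8: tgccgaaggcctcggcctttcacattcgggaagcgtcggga
SNHG19 had the run TCTTTTC at its start and SNHG8 a shorter run of 6. MIR503HG had a run of 7 bases as well, CCCCCTC, but it began 12 bases before the start and ended before reaching it. Counted runs thus occurred in a host that rose and in a host that fell, at unlike places.

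Protein-coding hosts of snoRNAs were counted beside the noncoding hosts. Of 52 listed genes, all tested, 2 rose and 15 fell, which is 32.7% called, with a median change of -0.08. Over all tested genes 24.0% were called and the median was -0.09. With median-of-ratios scaling, which moved the median of all genes to 0.00, 4 rose and 4 fell, while with quantile normalization 2 rose and 21 fell. HSPA8, the constitutive HSP70 chaperone gene whose introns carry C/D box snoRNAs, had 4530, 4555 and 4690.0 TPM in H182 libraries and 2082, 2189 and 2097 TPM in DMSO libraries. It rose 2.16-fold, by 1.11 on the log2 scale (limma adjusted p = 8.24e-09). HSPA9, the mitochondrial HSP70 gene, had a change of -0.02 (limma adjusted p = 0.77). WDR43, a factor of early ribosome assembly, averaged 147 ± 9.70 TPM in H182 and 199 ± 5.18 TPM in DMSO (SD, n = 3 each) and fell by 0.44 on the log2 scale (limma adjusted p = 0.000359). The nucleolar GTPase gene GNL3 fell by 0.27 (limma adjusted p = 0.00101).

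Of 45 listed protein-coding hosts of microRNAs, 41 were tested, and 1 rose and 14 fell (36.6% called, beside 24.0% of all tested genes), with a median of -0.13. With median-of-ratios scaling 1 rose and 3 fell, and the number called was 6 without H182 replicate 2, 8 without H182 replicate 1 or DMSO replicate 2, and 9 without DMSO replicate 1 or 3. GABRE, a GABA receptor subunit gene that carries miR-224 and miR-452, rose, with 11.08, 8.16 and 13.08 TPM in H182 libraries and 5.24, 5.39 and 6.27 TPM in DMSO libraries. Its groups did not overlap, and the change was 0.81 (limma adjusted p = 0.00519). SMC4, the condensin gene that holds miR-15b and miR-16-2, averaged 139.9 ± 3.89 TPM in H182 and 171 ± 6.91 TPM in DMSO and fell by 0.29 (limma adjusted p = 0.00172). COPZ1, a coatomer gene, and WDR82, which acts in histone methylation, fell by 0.28 and 0.27 (limma adjusted p = 0.00411 and 0.00456). MCM7, a replicative helicase gene that hosts the miR-106b cluster, fell by 0.15 (limma adjusted p = 0.0171). VMP1, whose locus overlaps the miR-21 gene, and SREBF2, the host of miR-33a, had changes of 0.04 and 0.02 that did not pass (limma adjusted p = 0.693 and 0.839).

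The genes that act on the small RNAs were counted in the same fit. Among 21 proteins of snoRNA particles and their assembly, all tested, 6 fell and none rose. That is 28.6% with a median of -0.13, beside 24.0% and -0.09 for all tested genes. With median-of-ratios scaling 1 rose and 1 fell. NOP56, a core C/D box protein gene that itself hosts snoRNAs, averaged 666 ± 7.60 TPM in H182 and 780.3 ± 17.7 TPM in DMSO and fell by 0.23 (limma adjusted p = 0.001). DKC1, the pseudouridine synthase of H/ACA particles, fell by 0.25 (limma adjusted p = 0.00177), the nucleolar chaperone gene NOLC1 by 0.22 (limma adjusted p = 0.00879) and the assembly factor gene ZNHIT6 by 0.30 (limma adjusted p = 0.0102). NOP56, NOP58 and DKC1 stand in both this list and that of protein-coding snoRNA hosts.

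Of 20 genes of microRNA processing and action, 19 were tested. Among them 12 fell and 1 rose (68.4% called, median -0.17, beside 24.0% and -0.09 for all tested genes). That count depended on the scaling, with 1 higher and 1 lower under median-of-ratios scaling and 1 higher and 4 lower under quantile normalization, and on single libraries, with 4 called without H182 replicate 2, 5 without H182 replicate 1, 6 without DMSO replicate 3 and 7 without DMSO replicate 2. The 4 named members had small changes. HNRNPA1, an RNA-binding protein gene that assists the cutting of some microRNA precursors, averaged 1741 ± 12.5 TPM in H182 and 2034 ± 25.5 TPM in DMSO and fell by 0.22 (limma adjusted p = 0.000539). RAN, which drives nuclear export of precursors, fell by 0.16 (limma adjusted p = 0.00401), SRRT, a cap-complex partner, by 0.20 (limma adjusted p = 0.00612) and DDX5, a Microprocessor helicase gene, by 0.16 (limma adjusted p = 0.0159).

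Of 17 genes of nonsense-mediated decay, the pathway that removes many spliced snoRNA hosts, 1 rose and 2 fell (17.6%, median -0.09), below the share of all genes. EIF4A3, the helicase of the exon junction complex, had 325.70, 316.16 and 338.74 TPM in H182 libraries and 248.12, 250.41 and 260.42 TPM in DMSO libraries, and rose by 0.37 (limma adjusted p = 0.000194). SMG8, a regulator of the kinase SMG1, and the decapping adaptor gene PNRC2 fell by 0.37 and 0.24 (limma adjusted p = 0.00683 and 0.00705). Of all calls, 78.0% were lower as deposited and 46.2% with median-of-ratios scaling, so the number of falls in these lists depends on the scaling.

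**Figure D4:**
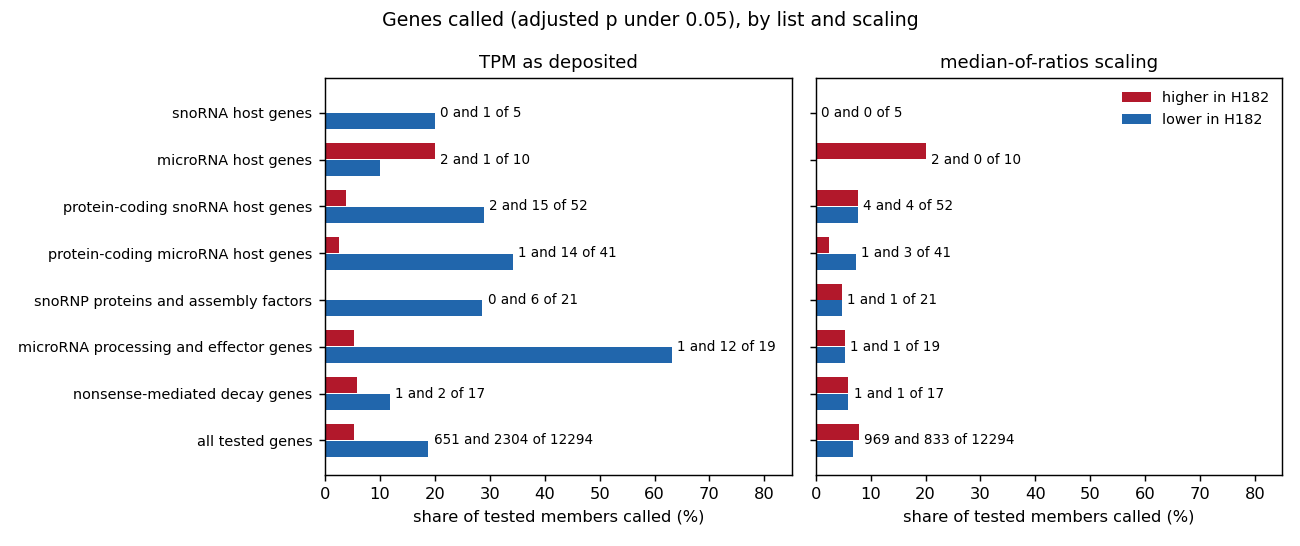
Share of the tested members of each list called higher (red) or lower (blue) in H182, with TPM as deposited on the left and after median-of-ratios scaling on the right; the text beside each bar gives the numbers higher and lower of those tested. The 12 lower calls among microRNA processing genes and the 14 among protein-coding microRNA hosts shrink to 1 and 3 after scaling, while the 2 higher calls of the noncoding microRNA hosts are there in both panels.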

How the data were processed

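The authors deposited 1 table of TPM, with 2 decimals, for every gene in the 6 libraries. The submitters' processing notes name the build GRCh38, the aligner STAR 2.5.0 and RSEM 1.2.25. Per the labels' protocols, libraries were stranded and poly-A selected. The annotation and strand setting are not given in the sources used here, and depth is unknown. Of 27567 rows, 92 spike-in rows at 0 and 24 second rows of X and Y genes were dropped. Of the rest, 26943 matched GENCODE 29 by identifier.

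H182 and DMSO (3 libraries each) were compared on log2(TPM + 1) for 12294 genes that averaged 1 TPM or more, with limma 3.58.1 in R 4.3.3 (empirical Bayes with a mean-variance trend, two-sided, Benjamini-Hochberg over all tested genes, threshold 0.05). Rose and fell mean passing it. The pseudocount understates changes of low genes. Errors are SDs unless called SE. The labels do not say whether replicates were separate cultures, and p-values therefore cover only the spread among the libraries, which may be technical. An exact permutation test of 3 against 3 cannot go below 0.1. Code was tested on simulated data.

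The members and lists were chosen with earlier results of these data known. Named were hosts with a mean of at least 10 TPM, hosts that passed, a few fixed by symbol, and up to 4 passing genes with the lowest p in each list, plus VMP1, SREBF2, MCM7, HSPA8 and HSPA9; other tested hosts are named to account for all members. Alternatives covered the pseudocount, filter, scaling, variance trend, threshold, a replicate block, and leaving out each library. Sequences came from RefSeq tables (GRCh38.p14) and GENCODE 29. Figures used matplotlib 3.10.9.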

Additional observations from a re-analysis of the deposited data

How the results depend on the processing

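Over 15 other settings the microRNA hosts kept 2 or 3 calls and the nonsense-mediated decay genes 2 to 4, and none of the named hosts that passed changed sign. The 1 snoRNA host call became 0 with no filter, median-of-ratios scaling, no mean-variance trend or a threshold of 0.01, and lay between 0 and 1 when single libraries were left out. Calls over all genes were 2955 as reported, 1802 with median-of-ratios scaling (969 higher and 833 lower), 1436 at a threshold of 0.01, and 1963 (without DMSO replicate 2, 556 higher and 1407 lower) to 2757 when single libraries were left out. The snoRNA particle genes had 6 calls as reported, 2 with median-of-ratios scaling and 3 at 0.01. The protein-coding snoRNA hosts had 17, 8 with median-of-ratios scaling, 10 with no trend and 23 with quantile normalization (2 higher and 21 lower). The protein-coding microRNA hosts had 15, 4 with median-of-ratios scaling, 6 with quantile normalization, 7 after rescaling without HSPA1A, HSPA1B and DNAJB1, 9 with no trend, 5 at 0.01, and 6 to 14 with a library left out. The microRNA processing genes had 13, 5 with no filter, 2 with median-of-ratios scaling, 5 with quantile normalization, 6 after that rescaling, 3 with no trend, 3 at 0.01, and 4 to 11 with a library left out. A threshold of 0.01 is stricter by construction; the cause of the other differences was not tested. At 0.01 the SNHG19 and MIR137HG calls were also lost. With the replicate number as a block, 2684 genes were called (625 higher and 2059 lower), with 1 snoRNA host and 3 microRNA hosts called; the block changed no host call. Same-numbered libraries did not deviate together (r = -0.013, 0.00245 and -0.0359), so the numbers were not taken as pairs. TPM keeps no depth, so hosts near the filter could not be given a counting error.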

Other observations

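Host genes outside the symbol rule were counted by annotation. Among 21 tested lincRNA genes with an annotated microRNA gene on the same strand, 4 rose and 1 fell. That is 23.8% called, near the 24.0% of all tested genes, and 14.1% of all tested lincRNA genes were called. Besides MIR503HG, MIR22HG and MIR137HG, the genes called were LINC00472 and NEAT1, named after their values were seen. LINC00472 had 15.20, 15.94 and 16.14 TPM in H182 libraries and 8.99, 10.92 and 11.20 TPM in DMSO libraries, and rose by 0.56 on the log2 scale (limma adjusted p = 0.00302). NEAT1, the scaffold of paraspeckles, averaged 533 ± 44.7 TPM in H182 and 53.9 ± 6.90 TPM in DMSO (SD, n = 3 each), a ratio of 9.89. MIR4435-2HG, a microRNA host whose hyphen kept it outside the rule, was more abundant than any microRNA host inside it. It had 138.48, 124.55 and 128.29 TPM in H182 libraries and 124.06, 138.58 and 144.32 TPM in DMSO libraries, and its change of -0.05 did not pass (limma adjusted p = 0.569). Of the 9 tested lincRNA genes with an annotated snoRNA, SNHG19 fell and none rose (11.1% called). Over all 218 tested protein-coding genes that hold a snoRNA, 8 rose and 55 fell (28.9%, median change -0.11). Over the 717 that hold a microRNA, 38 rose and 138 fell (24.5%, median -0.09), close to the 24.0% of all genes.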
